A study of Mus musculus with 8 samples.

Results

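The genes described here are 3 homeobox genes of the X-linked Rhox cluster (Rhox5, Rhox6 and Rhox9), the germ cell gene Dazl, and 6 genes that write, maintain or remove DNA methylation (Dnmt1, Dnmt3a, Dnmt3b, Tet1, Tet2 and Uhrf1). They were taken by symbol: every probe that the array annotation gives to 1 of these 10 symbols was kept, and the probes of 1 gene were kept apart. This gave 14 probes for 9 of the 10 symbols, out of 45281 probes and 19057 symbols on the array. No probe carried the symbol Tet2, which was not analysed here. The set was chosen by the log2 differences between groups that an earlier analysis of the same arrays gave, and Rhox5, Rhox6, Rhox9 and Dazl are therefore described with no test.

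RNA was measured on Illumina bead arrays in pre-iPSCs, cells halted before full reprogramming, which were made from female mouse neural stem cells of the 129/MF1 strain. All groups carried an Oct4-GFP-IRES-puro reporter, were kept in serum with LIF, and were labelled day 0. PiggyBac vectors with a CAG promoter had been integrated stably under hygromycin and/or blasticidin, to carry Nanog and Sin3a together (Nanog+Sin3a), Nanog with the empty vector (Nanog), Sin3a with the empty vector (Sin3a) or the empty vector alone (EV). Each of the 4 groups held 2 arrays, and the labels do not state whether these came from separate cultures, so each p-value measures only the spread between arrays. Nanog is a homeodomain factor of the pluripotency network and Sin3a the scaffold of a histone deacetylase co-repressor. The title of the series asks whether they cooperate in reprogramming.

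DNA methylation in mammals is laid down on CG pairs by Dnmt3a and Dnmt3b, which act on unmethylated DNA. It is copied at replication by Dnmt1, which Uhrf1 brings to newly copied DNA by binding hemimethylated CG. The Tet enzymes oxidise 5-methylcytosine and so start its removal. Rhox genes are expressed in testis, ovary, placenta and germ cells, and Rhox5 (also called Pem) is a classic example of a gene kept silent in somatic cells by methylation of its promoter. Dazl, an RNA-binding protein of germ cells, likewise has a promoter rich in CG that is methylated in somatic cells and active in the germline. Methylation itself was not measured in these arrays, which report RNA alone.

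The promoter windows of Rhox5 and Dazl are shown because these are the germline genes of the set whose start sites were in the RefSeq promoter table, and because CG pairs are the sites that the enzymes of the set act on. Each window runs from 250 bases before to 50 bases after the annotated start, 5′ to 3′ on the strand of the gene, in GRCm38.p6. Capitals mark CG, the only motif searched, which reads the same on both strands. The Rhox5 window is chrX:37754358-37754657 on the plus strand, and the Dazl window is chr17:50293571-50293870 on the minus strand.
Rhox5: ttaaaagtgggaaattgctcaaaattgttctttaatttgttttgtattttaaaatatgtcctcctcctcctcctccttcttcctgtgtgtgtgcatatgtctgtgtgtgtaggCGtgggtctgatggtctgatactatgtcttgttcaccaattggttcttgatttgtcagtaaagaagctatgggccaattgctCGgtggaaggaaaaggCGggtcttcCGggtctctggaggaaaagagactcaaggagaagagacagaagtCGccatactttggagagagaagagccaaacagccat
Dazl: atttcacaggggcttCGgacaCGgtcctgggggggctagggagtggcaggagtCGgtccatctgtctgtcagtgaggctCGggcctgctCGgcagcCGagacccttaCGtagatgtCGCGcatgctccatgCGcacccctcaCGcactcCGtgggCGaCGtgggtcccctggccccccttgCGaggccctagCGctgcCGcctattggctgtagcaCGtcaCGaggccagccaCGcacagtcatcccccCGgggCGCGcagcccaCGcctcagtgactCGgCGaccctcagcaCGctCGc
The Rhox5 window held 5 CG pairs with a GC content of 43.7%, and the Dazl window held 28 with a GC content of 68.7%. Of the 32851 windows in the table, 94.6% held at least 1 CG and the median was 7. A count of 5 or fewer was found in 43.6% of windows, and a count of 28 or fewer in 87.1%. The window of Dnmt3b held 30, that of Tet1 held 17 and that of Tet2 held 57. The genes with several annotated starts ranged more widely, from 2 to 33 CG pairs for Dnmt1, from 18 to 47 for Dnmt3a and from 12 to 33 for Uhrf1. In all 8 of the 10 symbols matched the table, and Rhox6 and Rhox9 are named only.

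Values below are the deposited intensities on a linear scale, after subtraction of background, so that a value near or below 0 is background. Differences are on the log2 scale after values under 16 had been raised to 16, called the floor. The second array of the Sin3a group was far noisier than its companions. Among 7812 probes of middle intensity, 80.1% differed by over 1 (log2) between the Sin3a arrays, against 2.57%, 1.36% and 0.205% between the arrays of the Nanog+Sin3a, Nanog and EV groups. Among 2670 bright probes, those with a mean log2 value above 9, the share was 0% in Sin3a and 0.0375% in EV. Comparisons that do not involve the Sin3a group were therefore fitted on the other 7 arrays, over 18558 probes above the floor in at least 2 of them, and comparisons with the Sin3a group were tested on bright probes of all 8 arrays.

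The transgenes followed the labels. Nanog (ILMN_1245732) had 289.5 and 285.2 in Nanog+Sin3a, 364.8 and 485.8 in Nanog, -7.3 and -12.2 in Sin3a, and -3.6 and -5.4 in EV. A second Nanog probe, ILMN_2706623, stayed between -4.8 and 21.0. Sin3a (ILMN_2612143) had 1484.7 and 1483.3 in Nanog+Sin3a, 344.4 and 472.5 in Nanog, 1182.1 and 1141.6 in Sin3a, and 329.3 and 261.8 in EV. Which part of either transcript these probes bind is not given in the sources used here.

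Rhox5 was the 1 germline member with RNA above background, and its level was ordered by transgene. Its only probe, ILMN_2762935, had 595.1 and 726.5 in Nanog+Sin3a, 523.4 and 516.0 in Nanog, 150.9 and 20.6 in Sin3a, and 244.5 and 236.8 in EV. Both Nanog+Sin3a arrays lay highest, both Nanog arrays next, both EV arrays below them and both Sin3a arrays lowest. Rhox5 was chosen by its differences on these arrays, and the share of all probes that separate the groups in this way was not counted. The means were 660.8 ± 92.9 in Nanog+Sin3a, 519.7 ± 5.23 in Nanog, 85.8 ± 92.1 in Sin3a and 240.7 ± 5.44 in EV (SD, n = 2 each). The SD of Sin3a is the gap between its arrays, and its noisy second array read Rhox5 close to the floor.

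**Figure D1:**
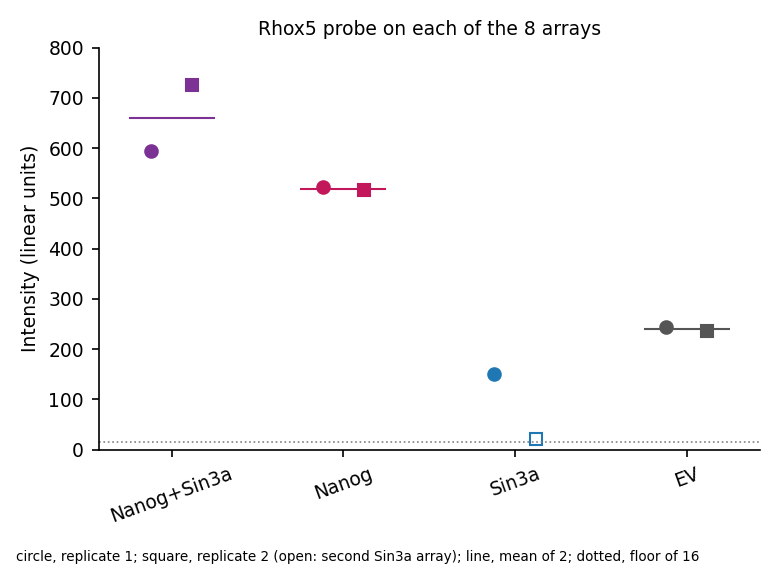
Intensity of Rhox5 (linear scale) on each array, in Nanog+Sin3a, Nanog, Sin3a and EV, with 1 point per array, a line at the mean of each group other than Sin3a, and the second Sin3a array as an open square. The Nanog+Sin3a arrays lie at 595.1 and 726.5 and the Nanog arrays at 523.4 and 516.0, all above the EV arrays at 244.5 and 236.8.

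On the log2 scale, Rhox5 was higher in Nanog than in EV by 1.11 (SE 0.12, 7 arrays), a 2.16-fold difference. It was higher in Nanog+Sin3a than in EV by 1.45 (SE 0.12), or 2.73-fold. These comparisons share the EV arrays. Nanog+Sin3a exceeded Nanog by a smaller step of 0.34 (SE 0.12), or 1.27-fold, and this step depended on the array: it was 0.48 without the first array of Nanog+Sin3a and 0.20 if the second was left out instead. Leaving out single arrays moved the difference of Nanog from EV only between 1.09 and 1.13, and that of Nanog+Sin3a from EV between 1.31 and 1.59.

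Rhox5 with Sin3a lay on opposite sides of its level without Sin3a, depending on whether Nanog was present. The first Sin3a array lay below EV by 0.67 on the log2 scale (log2 difference -0.67, SE 0.14, 1 array against 2), whereas Nanog+Sin3a lay above Nanog by 0.34. The difference between these differences was 1.01 (SE 0.19, 7 arrays), and it ranged from 0.87 to 1.16 when single arrays of the other groups were left out. The first Sin3a array, on which it rests, could not be left out. With all 8 arrays the Sin3a group was lower than EV by 2.11 on the log2 scale (log2 difference -2.11), and the difference between differences was 2.45 (SE 1.12). The SE of the comparison of Nanog with EV was 0.79 in that fit, against 0.12 in 7 arrays. Against the first Sin3a array, Nanog+Sin3a was higher by 2.12 (SE 0.14), or 4.36-fold.

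The order of Rhox5 over the groups differed from that of the Nanog probe ILMN_1245732. Nanog RNA was higher in both Nanog arrays (364.8 and 485.8) than in both Nanog+Sin3a arrays (289.5 and 285.2), while Rhox5 was higher in both Nanog+Sin3a arrays. On the log2 scale Nanog+Sin3a differed from Nanog by -0.55 on this Nanog probe (SE 0.18, adjusted p = 0.372, limma), which did not pass. Sin3a RNA was high in the groups with the highest and the lowest Rhox5. The part of either transgene level in the level of Rhox5 was not tested.

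In a bulk sample, fewer cells that express a gene and less RNA per cell cannot be told apart. Markers of the cell types in which Rhox5 is normally found were therefore read on the same arrays. All 6 germ cell markers lay at the floor. Their summed intensity was 18.8 to 36.4 with the Nanog transgene and 4.9 to 11.7 without it, leaving out the second Sin3a array. Dazl, a member of the set chosen with earlier results of these arrays known, is among these 6. Values below 0 were counted as 0 in all marker sums, so these germ cell sums are made of background readings. Of 8 trophoblast markers, 4 lay at the floor (Elf5, Eomes, Hand1 and Tpbpa), and the sum on 7 arrays was 67.0 to 124.9 with Nanog and 65.5 to 148.7 without it. Of 4 Sertoli cell markers with a probe, 3 lay at the floor, and the sum on 7 arrays was 41.7 to 65.1 with Nanog and 51.5 to 93.0 without it. On the second Sin3a array the sums were 251.5 for germ cells, 121.0 for trophoblast and 132.3 for Sertoli cells. Of the tested trophoblast and Sertoli markers 0 passed in any of the 7-array comparisons.

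Of the markers of the starting cells and of fibroblasts, few were tested and some of those passed. The neural stem cell markers summed to 783.1 to 822.3 with Nanog and 1150.1 to 1358.8 without it on 7 arrays, and to 1468.6 on the second Sin3a array, with 6 of 8 genes at the floor (Pax6, Olig2, Sox1, Fabp7, Gfap and Hes5). Egfr (ILMN_2693922), a growth factor receptor of neural stem cells, fell by 0.66 in Nanog (adjusted p = 0.0414) and by 0.73 in Nanog+Sin3a (adjusted p = 0.0207, limma), and its other 4 tested probes lay below EV in both groups, by -0.08 to -0.88, and did not pass. Of the 7 tested probes of 2 genes, 1 was called as falling in Nanog (Egfr) and 2 in Nanog+Sin3a (Egfr and Nes). Of all probes, 0.959% were called as falling in Nanog and 3.08% in Nanog+Sin3a. The fibroblast markers summed to 684.1 to 780.9 with Nanog and 481.5 to 521.1 without it on 7 arrays, but to 754.7 on the second Sin3a array, inside the range with Nanog, with Col1a1, Col1a2, Lum and Postn at the floor. Of the 5 tested probes of 4 genes, 1 was called as rising in Nanog and 1 in Nanog+Sin3a, Thy1 in each. Dcn, also called in Nanog+Sin3a, lay at the floor in EV and is left out of this count. Of all probes, 1.08% were called as rising in Nanog and 2.8% in Nanog+Sin3a. The median over the fibroblast probes was 0 in Nanog and 0.42 in Nanog+Sin3a. Twist1 differed by -0.28 in Nanog and -0.20 in Nanog+Sin3a and Pdgfra by -0.07 and 0.20 in the same groups, and neither passed. Thy1 (ILMN_2644350), a surface glycoprotein also made by neurons, rose by 1.13 in Nanog (adjusted p = 0.0131) and by 0.75 in Nanog+Sin3a (adjusted p = 0.0223). Nes (ILMN_2703267), a neural stem cell filament protein, fell by 0.78 in Nanog+Sin3a against EV (adjusted p = 0.0427), while its other tested probe differed by -0.22 (adjusted p = 0.768). Dcn (ILMN_2747959), a matrix proteoglycan of fibroblasts, lay at least 2.42 higher in Nanog+Sin3a than in EV. Its EV arrays were at the floor, so this difference is given with no test. With any 1 of the Nanog+Sin3a or EV arrays left out, Egfr, Thy1 and Nes did not pass. Over all single arrays left out, the adjusted p reached 0.335 for Egfr, 0.286 for Thy1 and 0.265 for Nes. The part of these cell markers in the level of Rhox5 was not tested. The embryonic stem cell markers summed to 2163.7 to 2510.1 with Nanog and 2365.5 to 2560.7 without it on 7 arrays, with Esrrb and Tbx3 at the floor, and the 2 Pou5f1 probes ran from 386.0 to 742.3 and from 867.1 to 1167.3. In Nanog against EV 0 of the 13 tested probes of 8 genes passed. In Nanog+Sin3a only Sall4, a zinc finger factor of stem cells, passed, beside 3.08% of all probes called as falling. It fell by 1.37 on ILMN_3124235 (adjusted p = 0.0108) and by 1.32 on ILMN_2595478 (adjusted p = 0.0329, limma). The list median there was 0.01. Neither probe passed with any 1 of the Nanog+Sin3a or EV arrays left out. Their adjusted p reached 0.190 and 0.198 over single arrays left out.

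By the root mean square difference of log2 values set against the EV mean over 7 arrays, the patterns most like that of Rhox5 among 15656 probes were those of Ugt1a10 (0.202), Prss35 (0.203), Tbc1d2 (0.212), Gabarapl1 (0.240) and H2-M3 (0.243). Ugt1a10, a glucuronosyltransferase, had 307.6 and 368.9 in Nanog+Sin3a, 270.9 and 234.1 in Nanog, 103.2 on the first Sin3a array, and 130.8 and 106.8 in EV. Gabarapl1, an Atg8-family protein of autophagosomes, had 446.7 and 500.8 in Nanog+Sin3a, 324.6 and 381.0 in Nanog, 162.7 on the first Sin3a array, and 193.3 and 160.1 in EV. Tbc1d2 differed from Rhox5 in having its higher values in Nanog, at 414.2 and 411.6, against 393.4 and 389.3 in Nanog+Sin3a. These genes were picked for their likeness, so their values are a description.

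Rhox6, Rhox9 and Dazl showed no level above the floor that held in any group. Rhox6 (ILMN_1250192) had -17.2 and 2.6 in Nanog+Sin3a, -9.0 and -1.5 in Nanog, -14.6 and -6.1 in Sin3a, and -9.2 and -19.6 in EV. Rhox9 (ILMN_1234077) had 3.4 and -12.0 in Nanog+Sin3a, -17.3 and -10.1 in Nanog, -16.2 and -12.4 in Sin3a, and -13.0 and 16.2 in EV, so 1 EV array was just above the floor. Both genes lie in the cluster that holds Rhox5, and neither was read above the floor on both arrays of any group.

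Dazl had 2 probes. ILMN_1243458 had -9.4 and -10.1 in Nanog+Sin3a, 5.8 and 12.3 in Nanog, -14.6 and 9.1 in Sin3a, and -12.0 and -9.7 in EV. ILMN_2634147 had -9.7 and 1.7 in Nanog+Sin3a, 6.7 and 1.1 in Nanog, -12.8 and 2.0 in Sin3a, and -4.3 and -12.5 in EV. Neither probe exceeded 16 on any array. All 4 probes of these 3 genes lay outside the filter on low values and entered no fit.

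**Figure D2:**
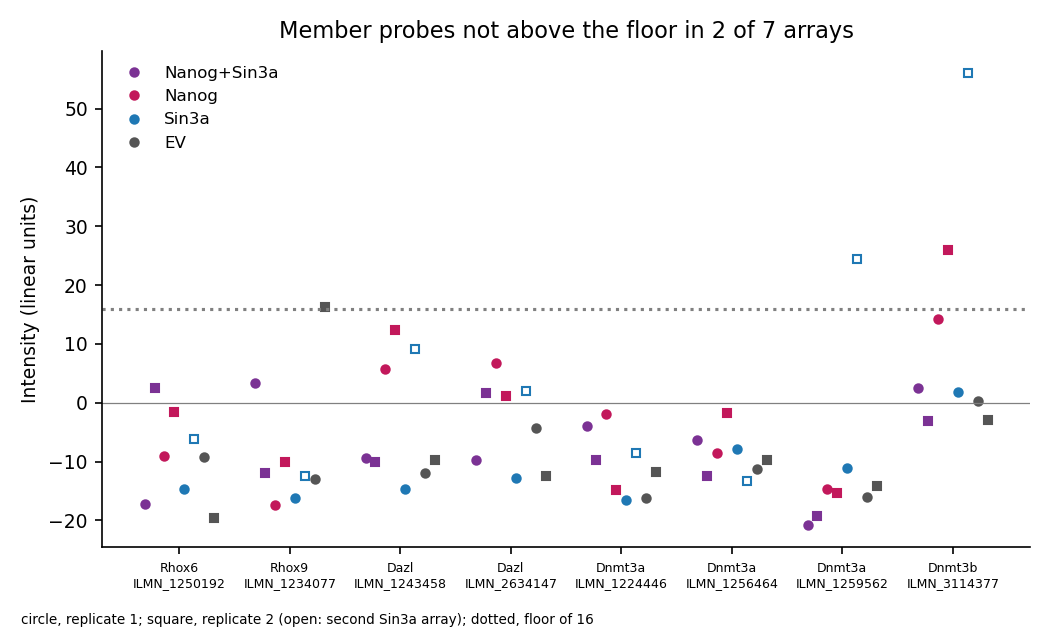
Intensity (linear scale) on each array for the member probes that entered no fit in 7 arrays, 1 column per probe, with points coloured by group, the second Sin3a array as open squares and the floor of 16 as a dotted line. The 8 probes lie between -20.7 and 26.0 on 7 arrays and between -13.3 and 56.0 on the second Sin3a array.

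The same read-out covered the rest of the Rhox cluster. Of 30 other Rhox symbols, 6 had a probe, and Rhox1, Rhox8, Rhox10, Rhox11 and Rhox13 lay at the floor. Rhox12 (ILMN_3067699) had 7.9 and -4.5 in Nanog+Sin3a, 22.0 and 24.0 in Nanog, 22.2 and 1.3 in Sin3a, and 8.0 and 25.2 in EV. It did not pass in Nanog or Nanog+Sin3a against EV (adjusted p = 0.728 in Nanog and 0.465 in Nanog+Sin3a, limma). Rhox genes are a multigene family, and whether a probe also binds a near-identical copy was not analysed here.

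Among 37 germline genes known to be silenced by promoter methylation, 33 lay at the floor on the 7 arrays. Of the 5 tested probes of the other 4 genes, 0 rose and 1 fell in Nanog against EV, beside 1.08% of all probes that rose and 0.959% that fell. In Nanog+Sin3a against EV 0 passed. The gene that fell was Tuba3a, a testis alpha-tubulin. Its probe ILMN_2505467 had 24.3 and 24.0 in Nanog+Sin3a, -3.1 and 12.9 in Nanog, 28.4 and -11.1 in Sin3a, and 39.2 and 40.2 in EV, so the Nanog arrays were at the floor (log2 difference -1.31, SE 0.17, adjusted p = 0.0226, limma). Another Tuba3a probe, ILMN_1220219, differed by -0.42 and did not pass (adjusted p = 0.366), and the list median over 5 probes was -0.42, against 0 for all probes. The call on Tuba3a was lost when any 1 of the Nanog+Sin3a, Nanog or EV arrays was left out, with adjusted p up to 0.275. Tuba3a and Tuba3b are close paralogs, and whether the probes tell them apart was not analysed here.

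Of 12 factors of primordial germ cells, 8 lay at the floor. Of the 8 tested probes of the other 4 genes, 1 was called as rising and 1 as falling in Nanog against EV. The counts in Nanog+Sin3a against EV were the same. Of all probes, 1.08% were called as rising and 0.959% as falling in Nanog, and 2.8% and 3.08% in Nanog+Sin3a. Ifitm1, an interferon-induced membrane protein also present on early germ cells, rose, and Kit, the receptor for stem cell factor, fell. Ifitm1 (ILMN_1214071) had 2479.8 and 2523.4 in Nanog+Sin3a, 2849.3 and 3643.2 in Nanog, 2048.8 and 1994.0 in Sin3a, and 1632.7 and 1439.1 in EV. It rose by 1.07 in Nanog (SE 0.13, adjusted p = 0.0190) and by 0.71 in Nanog+Sin3a (SE 0.13, adjusted p = 0.0351), while its other 3 probes differed by 0.21 to 0.52 in Nanog and by -0.04 to 0.32 in Nanog+Sin3a and did not pass. Kit (ILMN_1246876) had 27.9 and 29.0 in Nanog+Sin3a, 27.7 and 20.4 in Nanog, 75.2 and 13.0 in Sin3a, and 64.2 and 69.8 in EV. It fell by 1.49 in Nanog (adjusted p = 0.0312) and by 1.23 in Nanog+Sin3a (adjusted p = 0.0314). With single arrays left out, the adjusted p reached 0.317 for Ifitm1 and 0.327 for Kit in Nanog, and 0.302 for Ifitm1 and 0.256 for Kit in Nanog+Sin3a. Without any 1 of the Nanog+Sin3a or EV arrays none of these calls passed. Ifitm3 differed by 0.21 in Nanog and by -0.06 in Nanog+Sin3a. The Tfap2c probes differed by -0.55 and 0.53 in Nanog and by -0.48 and -0.12 in Nanog+Sin3a. Neither of these genes passed. The list median was 0.31 in Nanog and -0.05 in Nanog+Sin3a, against 0 for all probes.

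The DNA methylation members gave 9 probes, of which 5 passed the filter on low values. A Uhrf1 probe (ILMN_2497581) did so only through the EV arrays and is left out of the counts here. None of the other 4 passed the test in Nanog against EV, where 2.04% of the 18558 probes were called, in Nanog+Sin3a against EV, where 5.87% were called, or in Nanog+Sin3a against Nanog, where 0.0162% were called. At an unadjusted p under 0.05, 1 of the 4 differed in the first comparison, 0 in the second and 1 in the third, Tet1 in both cases. The shares of all probes at that p were 18.5%, 24.5% and 10.4% in the same order. With so few probes, these counts do not set the members apart from the shares over all probes.

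Dnmt1 and Uhrf1, the maintenance pair, were the 2 members bright enough to be tested in every comparison. Dnmt1 (ILMN_2720451) had 668.1 and 626.9 in Nanog+Sin3a, 685.6 and 744.6 in Nanog, 718.5 and 789.7 in Sin3a, and 693.7 and 640.6 in EV. Nanog and EV overlapped, as did Nanog+Sin3a and EV. The log2 difference was 0.10 in Nanog against EV (95% interval -0.12 to 0.32, adjusted p = 0.631) and -0.04 in Nanog+Sin3a against EV (-0.27 to 0.18, adjusted p = 0.817). The intervals therefore leave room for changes of up to about 0.3 on the log2 scale.

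Both Sin3a arrays read Dnmt1 above both EV arrays, and Nanog+Sin3a read it below Nanog. How many of all probes separate these groups in this way was not counted. In the bright probes of all 8 arrays the log2 difference of Sin3a from EV was 0.18 (SE 0.13, adjusted p = 0.793), in a comparison that called 0.15% of 2670 probes. Nanog+Sin3a differed from Sin3a by -0.22 (SE 0.13, adjusted p = 0.277), in a comparison that called 11.6%. The Sin3a effect with Nanog minus that without it was -0.32 for Dnmt1 (SE 0.18, unadjusted p = 0.0934, adjusted p = 0.830), in a test that called 0.0375%. None of these passed.

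Uhrf1 was strongly expressed on 1 of its 2 probes. ILMN_2517041 had 2938.1 and 2694.5 in Nanog+Sin3a, 3098.2 and 3165.7 in Nanog, 3159.0 and 2871.2 in Sin3a, and 3277.5 and 2959.7 in EV. Both Nanog arrays lay between the EV arrays, and both Nanog+Sin3a arrays lay below both EV arrays. The share of all probes placed like this was not counted. The log2 difference was 0.01 in Nanog against EV (95% interval -0.22 to 0.23, adjusted p = 0.988) and -0.15 in Nanog+Sin3a against EV (-0.37 to 0.08, adjusted p = 0.397). In bright probes, Sin3a differed from EV by -0.05 (adjusted p = 0.956) and Nanog+Sin3a from Sin3a by -0.10 (adjusted p = 0.573).

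The other Uhrf1 probe, ILMN_2497581, read close to background. It had -4.1 and -6.3 in Nanog+Sin3a, 8.8 and -6.4 in Nanog, -0.2 and 70.5 in Sin3a, and 18 and 29.7 in EV. It entered the fit only through the EV arrays, so its difference from EV in Nanog and in Nanog+Sin3a (-0.53 in each, SE 0.25) is limited by the floor and is given with no test.

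**Figure D3:**
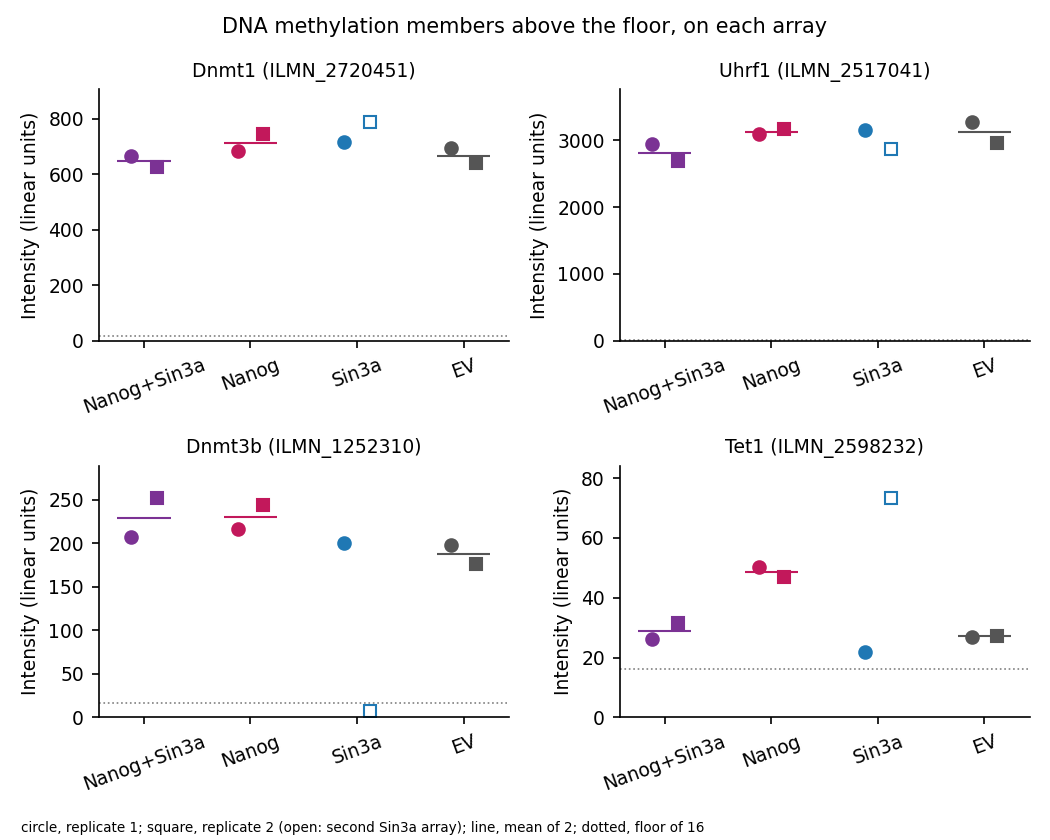
Intensity on each array for 4 DNA methylation probes, 1 panel each, with groups in the order Nanog+Sin3a, Nanog, Sin3a and EV, a line at the mean of each group other than Sin3a, and the second Sin3a array as an open square. Dnmt1 stays between 626.9 and 789.7 and Uhrf1 (ILMN_2517041) between 2694.5 and 3277.5, while on the second Sin3a array Dnmt3b is at 7.7 and Tet1 at 73.2.

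Of the enzymes that place new methyl groups, Dnmt3b was read above background and Dnmt3a was not. Dnmt3b (ILMN_1252310) had 206.7 and 251.4 in Nanog+Sin3a, 215.9 and 244.3 in Nanog, 200.3 and 7.7 in Sin3a, and 198.2 and 175.9 in EV. All 4 arrays with the Nanog transgene lay above both EV arrays, and so did the first Sin3a array (200.3), which has no Nanog transgene. The share of all probes in this order was not counted. The log2 difference was 0.30 in Nanog against EV (SE 0.14, 95% interval -0.05 to 0.64, adjusted p = 0.330) and 0.29 in Nanog+Sin3a against EV (SE 0.14, -0.06 to 0.63, adjusted p = 0.282), and neither passed. Nanog+Sin3a and Nanog differed by -0.01 (adjusted p = 1.00).

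A second Dnmt3b probe, ILMN_3114377, had 2.6 and -3.1 in Nanog+Sin3a, 14.3 and 26.0 in Nanog, 1.8 and 56.0 in Sin3a, and 0.3 and -3.0 in EV, and entered no fit in 7 arrays. The 3 probes of Dnmt3a lay below the floor on all 7 arrays, between -16.5 and -1.9 for ILMN_1224446, between -12.4 and -1.8 for ILMN_1256464 and between -20.7 and -11.0 for ILMN_1259562, which read 24.5 on the second Sin3a array. Dnmt3a is made as several isoforms, and which of them these probes bind is not given in the sources used here, so a reading at background is not a measure of the absence of the enzyme. The patterns most like that of Dnmt3b were nearly flat ones: Isy1 (0.0497), Ugp2 (0.0511), Aimp2 (0.0536), Kif3c (0.0537) and Blcap (0.0541), by the same measure over 7 arrays.

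Tet1, which oxidises 5-methylcytosine, was the methylation member with the widest difference, at an intensity near background. ILMN_2598232 had 26.2 and 31.4 in Nanog+Sin3a, 50.4 and 47.0 in Nanog, 21.9 and 73.2 in Sin3a, and 27.0 and 27.1 in EV. Both Nanog arrays lay above all arrays of the Nanog+Sin3a and EV groups, and those 2 groups overlapped. How large a share of all probes does the same was not counted.

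The log2 difference of Tet1 in Nanog against EV was 0.85 (SE 0.20, 1.80-fold, 95% interval 0.37 to 1.32), with an unadjusted p of 0.00426 and an adjusted p of 0.0972 over all probes, so it missed the threshold of 0.05. Nanog+Sin3a against EV gave 0.08 (SE 0.20, adjusted p = 0.831). Nanog+Sin3a against Nanog gave -0.76 (SE 0.20, 95% interval -1.24 to -0.29, unadjusted p = 0.00711, adjusted p = 0.295). With a floor of 32, which raises both EV arrays to the same value and so leaves them no spread, the difference of Nanog from EV was 0.60 and passed (adjusted p = 0.0288). On the second Sin3a array Tet1 read 73.2, its highest value, where the first Sin3a array read 21.9.

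**Figure D4:**
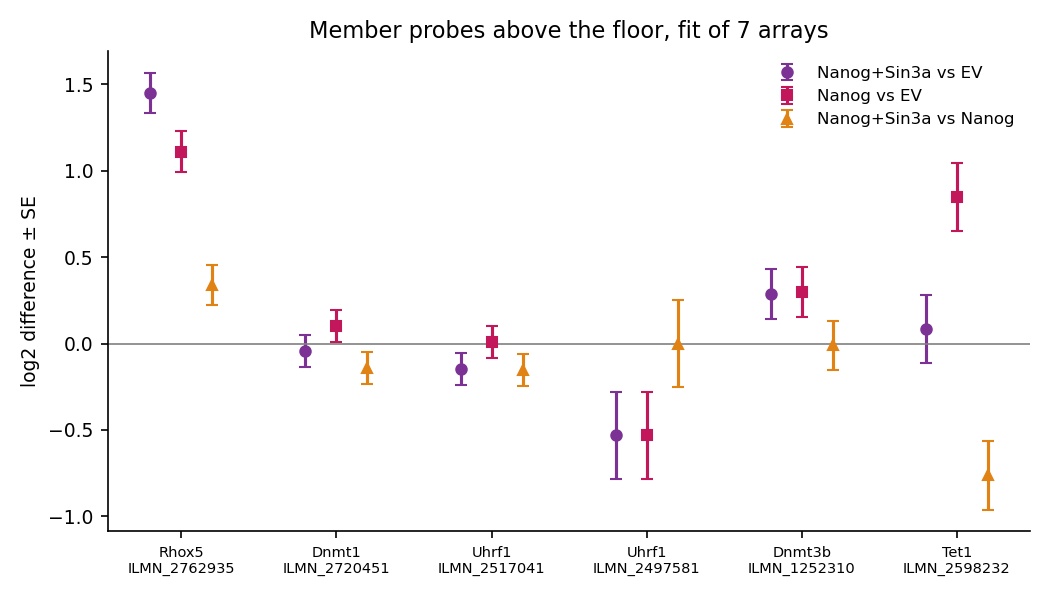
Log2 differences with their SE, as points and bars, of the member probes fitted in 7 arrays, in Nanog+Sin3a against EV, Nanog against EV and Nanog+Sin3a against Nanog. Rhox5 lies at 1.45, 1.11 and 0.34, and Tet1 lies at 0.08 in Nanog+Sin3a against EV, 0.85 in Nanog against EV and -0.76 in Nanog+Sin3a against Nanog.

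Beyond the members, 27 other genes of DNA methylation and its removal had a probe, and 17 of them were tested on 34 probes. In Nanog against EV 0 of 17 genes passed (5 of 34 probes had an unadjusted p under 0.05, beside 18.5% of all probes) and the median difference was 0.01. In Nanog+Sin3a against EV 0 of the 34 probes rose and 2 fell, each of a different gene, beside 2.8% of all probes that rose and 3.08% that fell. The list median there was -0.11, against 0 for all probes. In Nanog+Sin3a against Nanog 0 passed and the median was -0.15. Genes at the floor were Cxxc4, Cxxc5, Dnmt3l, Dppa3, Hells, Mbd2, Nsd1, Prdm14, Tet3 and Zbtb38, among them Dnmt3l, the cofactor of the enzymes that place new methylation, and Dppa3, which shields methylation in the early embryo.

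The 2 genes that fell were Apex1 and Zfp445. Apex1, the endonuclease of base excision repair that cuts DNA where a base has been removed, had 220.7 and 220.9 in Nanog+Sin3a, 273.3 and 308.3 in Nanog, 291.6 and 28.6 in Sin3a, and 341.3 and 390.4 in EV. It fell by 0.73 in Nanog+Sin3a against EV (SE 0.12, adjusted p = 0.0233). Zfp445, a zinc finger protein that protects methylation at imprinted loci, had 27.2 and 34.7 in Nanog+Sin3a, 50.9 and 53.2 in Nanog, 63.3 and 1.5 in Sin3a, and 66.7 and 71.8 in EV. It fell by 1.17 in Nanog+Sin3a against EV (SE 0.20, adjusted p = 0.0292), and its other probe was at the floor. With any 1 of the Nanog+Sin3a, Nanog or EV arrays left out neither passed, with adjusted p up to 0.226 for Apex1 and 0.251 for Zfp445. Gadd45b, a stress gene linked to demethylation, had probes that disagreed: ILMN_2900653 differed by 0.66 and ILMN_1246065 by -0.77 in Nanog+Sin3a against EV, and neither passed (adjusted p = 0.135 for the first and 0.0953 for the second).

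**Figure D5:**
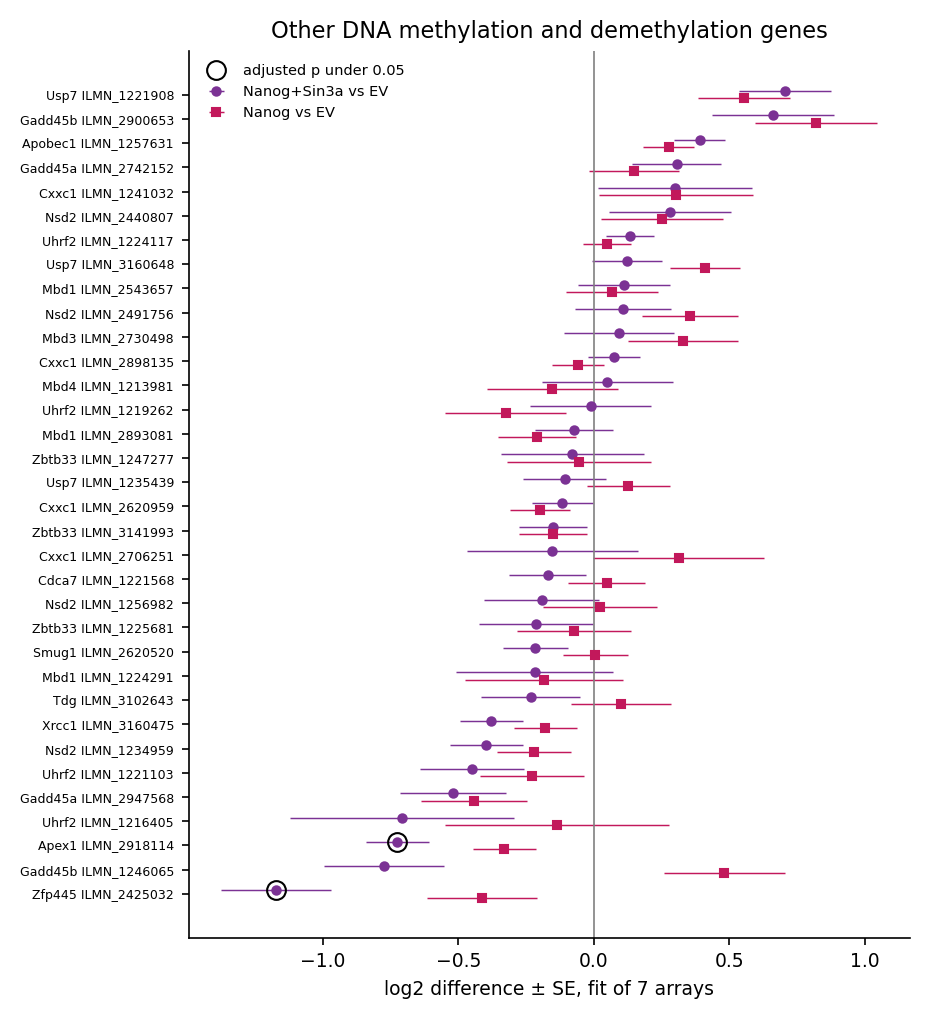
Log2 differences from EV in 7 arrays, with bars of 1 SE, for the 34 probes of the other DNA methylation and demethylation genes that were tested, in Nanog+Sin3a and in Nanog, with circled points where the adjusted p was under 0.05. Apex1 (-0.73) and Zfp445 (-1.17) in Nanog+Sin3a are the circled points.

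Genes that supply the methyl donor S-adenosylmethionine were read in the same way. Of 12 with a probe, 10 were tested and 0 passed in any of the 7-array comparisons, with medians of -0.11 in Nanog against EV, -0.13 in Nanog+Sin3a against EV and -0.02 in Nanog+Sin3a against Nanog. The widest differences from EV in Nanog+Sin3a were -0.85 for Mthfd2 (ILMN_2878548, a mitochondrial folate enzyme, adjusted p = 0.0544) and -0.71 for Ahcyl1 (ILMN_2428506, adjusted p = 0.159). Another Mthfd2 probe differed by 0.10 and another Ahcyl1 probe by -0.13. Of 11 genes of H3K9 methylation and KRAB silencing, which often act with DNA methylation, 9 were tested and 0 passed, and Ehmt1 (ILMN_2757855), an H3K9 methyltransferase, differed by -0.76 in each group with Nanog, at the floor in both, and entered the fit only through the EV arrays.

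Dnmt1 and Uhrf1 rise in S phase, and S phase genes were therefore set beside them. Of 23 such genes 22 were tested. In Nanog against EV 0 passed (10 of 42 probes had an unadjusted p under 0.05, beside 18.5% of all probes). In Nanog+Sin3a against EV 1 of the 42 probes rose and 2 fell, each of a different gene, beside 2.8% of all probes that rose and 3.08% that fell. The list medians were -0.03 in Nanog and -0.05 in Nanog+Sin3a. Gins1, a subunit of the replicative helicase, had 465.7 and 447.6 in Nanog+Sin3a, 349.4 and 493.2 in Nanog, 200.1 and 20.2 in Sin3a, and 196.4 and 258.8 in EV, and rose by 1.02 in Nanog+Sin3a (SE 0.20, adjusted p = 0.0376). Pcna, the sliding clamp that Dnmt1 binds, had 176.7 and 126.5 in Nanog+Sin3a, 183.7 and 223.3 in Nanog, 252.5 and 484.9 in Sin3a, and 302.3 and 382.4 in EV, and fell by 1.19 in Nanog+Sin3a (SE 0.21, adjusted p = 0.0293). Mcm6 fell by 1.58 on ILMN_1217331 (SE 0.30, adjusted p = 0.0343), while its other 3 probes differed by -0.11, -0.50 and -1.04 and did not pass. With any 1 of the Nanog+Sin3a, Nanog or EV arrays left out none of these passed, with adjusted p up to 0.255 for Gins1, 0.288 for Pcna and 0.308 for Mcm6. The summed intensity of the list was 23829.3 to 24714.3 with Nanog and 23913.0 to 25109.8 without it, leaving out the second Sin3a array, so the groups overlapped. Across all the lists 18 calls on single probes were made in the 7-array comparisons, among them that on Dcn. With all 8 arrays 0 of them passed, where 0% of 19673 probes were called in Nanog against EV and 0.137% in Nanog+Sin3a against EV.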

How the data were processed

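RNA was hybridised to 8 Illumina bead arrays. The values deposited by the authors are intensity per probe from GenomeStudio, per the submitters' processing notes, which give no version or settings. Values run from -24 to 14965.3, so background had been subtracted, and once sorted, 7 of the arrays matched each other within 0.621% above the floor (4.05% for the second Sin3a array), so the values were taken as already quantile-normalised. The number of arrays limits the precision. The array annotation gave 1 symbol to 34885 probes, several to 18 and none to 10378, and RefSeq updated 0 symbols.

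From these values, those under 16 were raised to 16 (4 on the log2 scale), then log2 was taken. R 4.3.3 and limma 3.58.1 (lmFit, eBayes with an intensity trend) were used with 1 coefficient per group and Benjamini-Hochberg adjustment over all probes tested, two-sided, at 0.05. The fit of 7 arrays (18558 probes above the floor in at least 2 arrays) had 3 residual degrees of freedom, with the lone Sin3a array assumed to vary like the others. The fit of bright probes (mean log2 above 9, 2670 probes, 8 arrays) had 4. There were 6 comparisons. The procedure was tested on simulated data. Alternatives changed the floor, the filter, the normalisation, the arrays used, the weights and the block.

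The members, the gene lists and the tests were chosen with earlier results of these data known. All member probes were named. From each list up to 4 genes with the widest difference among those that passed were named, or up to 2 as values where none passed, and a few others mentioned as values (Esrrb, Tbx3, Pou5f1, genes at the floor, other probes of named genes) were chosen after their values were seen. For Rhox5 and Dnmt3b the 5 genes of most alike pattern were named.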

Additional observations from a re-analysis of the deposited data

Results flagged for a closer look

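Rhox5 moved opposite ways with Sin3a in the presence and absence of Nanog: both Nanog+Sin3a arrays (595.1 and 726.5) lay above both Nanog arrays (523.4 and 516.0), and both Sin3a arrays (150.9 and 20.6) lay below both EV arrays (244.5 and 236.8). On the log2 scale the Sin3a effect with Nanog minus that without it was 1.01 in 7 arrays, and this difference was not tested. It rests on the first Sin3a array (150.9) alone. The second Sin3a array (20.6) is the noisy one, so its place below EV is not a second reading to rely on.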

How the results depend on the processing

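The counts of probes called were the values that moved most. In Nanog against EV the 378 calls became 237 with a floor of 8, 601 with a floor of 32, 31 with no filter, 0 with all 8 arrays, 972 with array weights and 196 with the replicate block, and 0 to 426 with single arrays left out. In Nanog+Sin3a against EV the 1090 calls became 75 with no filter, 27 with all 8 arrays, 463 in bright probes, 1843 with array weights and 573 with the replicate block, and 0 to 1183 with single arrays left out. In Nanog+Sin3a against Nanog the 3 calls became 0 with a floor of 8, 18 with a floor of 32, 20 with no filter, 0 with all 8 arrays, 7 in bright probes, 8 with array weights, 5 with only the 2 groups and 0 with the replicate block, and 0 to 8 with single arrays left out. In Sin3a against EV the 4 calls became 0 in 7 arrays, 13 with no filter, 12 with array weights, 35 with only the 2 groups and 2 with the replicate block, and 1 to 14 with single arrays left out. In Nanog+Sin3a against Sin3a the 309 calls became 198 in 7 arrays and 17 with no filter, and 87 to 488 with single arrays left out. For the Sin3a effect with Nanog minus that without it, the 1 call became 0 in 7 arrays, 24 with no filter and 4 with array weights, and 0 to 21 with single arrays left out, and no fit with only 2 groups could be made. The causes were not tested.

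The count of DNA methylation members called stayed at 0 in all comparisons and alternatives, except that a floor of 32 called 1 in Nanog against EV, Tet1. The values of these members fitted under alternatives numbered 375. They include those of the Uhrf1 probe ILMN_2497581, which is given above with no test. Of the 375, 364 kept their direction and side of the threshold, among them all values of that probe. Another 10 changed sign, all uncalled and within 0.13 of 0. Those were Uhrf1 (ILMN_2517041) in Nanog against EV, at -0.0076 without the second Nanog array and -0.066 without the second EV array, and in Sin3a against EV, at 0.020 in 7 arrays, 0.020 without the second Sin3a array and 0.025 without the first EV array. In Nanog+Sin3a against EV, Dnmt1 was 0.0032 without the second Nanog+Sin3a array and 0.015 if the first EV array was left out, and Tet1 was -0.046 without the second Nanog+Sin3a array. Dnmt3b in Nanog+Sin3a against Nanog was 0.13 without the first Nanog+Sin3a array and 0.078 without the second Nanog array. Over single arrays left out, Uhrf1 ran from -0.066 to 0.082 in Nanog against EV and from -0.12 to 0.025 in Sin3a against EV, Dnmt1 from -0.10 to 0.015 and Tet1 from -0.046 to 0.22 in Nanog+Sin3a against EV, and Dnmt3b from -0.15 to 0.13 in Nanog+Sin3a against Nanog. Of the member values with no test, 199 moved by less than the spread without a change of sign. The other 42 changed sign or moved by at least the spread. In Sin3a against EV, all 8 arrays in place of 7 gave 0.57 in place of -0.30 for Tet1, 0.54 in place of -0.53 for Uhrf1 (ILMN_2497581) and -1.72 in place of 0.10 for Dnmt3b. The replicate numbers are not stated to pair arrays, and the differences between replicates 1 and 2 correlated across probes at r = -0.05 for Nanog+Sin3a and Nanog, -0.02 for Nanog+Sin3a and EV and -0.05 for Nanog and EV. The replicate block kept 11 of the 18 calls on list probes, and all 8 arrays kept 0. Signal over background limits Rhox6, Rhox9, Dazl and Dnmt3a, which could not be compared between groups.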
